A study of Mus musculus with 40 samples.

Results

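The regions described here are stretches of chromatin that carried H3K27Ac in untreated macrophages of 2 mouse strains and were absent from the H3K27Ac lists of both strains 1 hr after Toll-like receptor 4 was activated. They were chosen from 26992 regions listed in untreated C57BL6 cells. Of these, 19703 had a Normalized Tag Count of at least 40, which is the number of sequenced tags in the region scaled to 10 M tags per library, and 18387 of those overlapped an untreated BALBc region by at least 1 bp. A total of 1927 of the 18387 (10.5%) overlapped no H3K27Ac region of the activated cells of either strain and are called lost regions below. Another 14615 overlapped such a region in both strains and are called kept regions, and 1845 overlapped one in a single strain. The H3K27Ac lists of both conditions chose the lost regions, so their H3K27Ac values are given as a description.

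The cells were thioglycollate-elicited peritoneal macrophages of C57BL6/J and BALBc/J mice, harvested 4 days after the injection. Macrophages of each strain received 100 ng/ml of Kdo2-lipid A (KLA), a purified lipopolysaccharide that activates Toll-like receptor 4, for 1 hr or, for RNA, also for 4 hr, and the untreated cells of each strain received fresh medium at the same time. H3K27Ac, H3K4me2, PU.1 and C/EBPa were mapped by ChIP-Seq with 1 library for each strain and condition, and p65 with 2 libraries per strain after KLA alone. Nascent transcription was measured by GRO-Seq in 4 libraries (KLA for 1 hr and untreated, each strain) and steady-state RNA by RNA-Seq in 6 libraries (KLA for 1 hr, KLA for 4 hr and untreated, each strain). Nothing in the labels says that the libraries came from separate animals or cultures, so every p-value below measures only the spread between these libraries.

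H3K27Ac is an acetyl mark that p300 and CBP place on the histones of active enhancers and promoters, and histone deacetylases remove it. H3K4me2 marks enhancers and promoters whether or not they are active. PU.1 and C/EBPa are the factors that select most macrophage enhancers together, and p65 is the subunit of NF-kB that enters the nucleus after Toll-like receptor 4 is activated and binds largely at sites already held by such factors.

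The ChIP-Seq libraries held 7.10 to 14.37 M tags, the GRO-Seq libraries 39.4 to 48.3 M and the RNA-Seq libraries 17.0 to 20.3 M. All 6 macrophage marker genes examined were present in every RNA-Seq library, with a summed level of 58252 to 79548 exon tags per 10 M after KLA and 75910 to 81234 in untreated cells. Markers of T and NK cells summed to 13.8 to 243 after KLA and 6.48 to 28.1 in untreated cells, with 1 to 3 and 3 to 4 of 6 at 0, and Cd3e and Cd3d at 0.54 or less in every library. Markers of B cells summed to 37.0 to 50.6 after KLA and 45.9 to 71.3 in untreated cells, those of mast cells to 39.4 to 432 and 44.8 to 48.9, those of neutrophils to 130 to 342 and 78.5 to 134, and those of eosinophils to 51.8 to 81.9 and 66.1 to 88.9. Single genes made up most of the highest sums: Lck of the T and NK markers reached 234, Hdc of the mast cell markers 423 and S100a8 of the neutrophil markers 341. The other markers present of these lists did not exceed 20.0 (Cd2), 27.6 (Cpa3) and 1.77 (Elane). Mesothelial and fibroblast markers summed to 1738 to 3798 after KLA and 2650 to 4155 in untreated cells, and all 7 were detected in each library. The part of these cells in the results below was not tested, and in bulk samples fewer cells of a type and less RNA per cell cannot be told apart.

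A small minority of lost regions were promoters: 67 (3.48%) contained an annotated transcription start. The sequences shown here are those at which a lost H3K27Ac region, a change in nascent transcription and a motif of a measured factor coincide. They were taken from RefSeq (build GRCm38.p6), as the 250 bases before the start of each gene, 5′ to 3′ on the gene's strand. Of the 67 genes, 43 matched the promoter table, 37 of them with a single promoter. Among these 37, nascent transcription of 13 was called lower after KLA, and 4 of the 13 held a searched motif, set in capitals.
Dio2: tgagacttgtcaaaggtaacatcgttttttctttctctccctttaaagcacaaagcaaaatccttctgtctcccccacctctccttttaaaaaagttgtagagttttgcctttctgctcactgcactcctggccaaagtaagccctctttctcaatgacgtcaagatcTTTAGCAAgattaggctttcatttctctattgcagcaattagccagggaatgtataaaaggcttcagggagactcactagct
Fcgrt: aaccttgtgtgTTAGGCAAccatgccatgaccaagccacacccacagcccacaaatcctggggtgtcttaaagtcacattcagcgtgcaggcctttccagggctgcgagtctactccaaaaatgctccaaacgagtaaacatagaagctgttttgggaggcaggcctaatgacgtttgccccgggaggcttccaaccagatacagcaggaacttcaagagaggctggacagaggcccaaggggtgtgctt
Mxd4: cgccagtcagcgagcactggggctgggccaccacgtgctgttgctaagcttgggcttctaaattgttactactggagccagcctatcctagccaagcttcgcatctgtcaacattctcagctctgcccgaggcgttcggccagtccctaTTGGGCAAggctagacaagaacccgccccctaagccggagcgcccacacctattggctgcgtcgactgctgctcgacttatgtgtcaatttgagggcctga
Cd72: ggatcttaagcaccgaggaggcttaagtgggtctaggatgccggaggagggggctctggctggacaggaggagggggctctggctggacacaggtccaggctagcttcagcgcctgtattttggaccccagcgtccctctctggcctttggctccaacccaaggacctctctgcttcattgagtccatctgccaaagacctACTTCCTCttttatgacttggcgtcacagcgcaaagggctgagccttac
Dio2, the deiodinase that makes active thyroid hormone, lies at chr12:90739039-90739288 on the minus strand. The promoter of Fcgrt, the neonatal Fc receptor, lies at chr7:45103823-45104072, that of Mxd4, a repressor that competes with MYC for MAX, at chr5:34187711-34187960, and that of Cd72, a C-type lectin co-receptor, at chr4:43454627-43454876, each on the minus strand. The first 3 hold the C/EBP motif TTGCNNAA on the strand opposite to the one printed, and Cd72 holds the PU.1 motif GAGGAAGT on the opposite strand. On both strands and in windows of this length, the C/EBP letters occur in 9.56% and the PU.1 letters in 2.44% of 32851 RefSeq promoters. They occur in 9 and 4 of the 50 promoters of genes with a start in a lost region (18% and 8.0%). The longer kappa-B motif of NF-kB, searched on both strands, occurs in 0.98% of all promoters and in 0 of those 50. The C/EBP motif can overlap itself on the opposite strand, and a match describes letters alone.

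At these 4 promoters H3K4me2 remained after KLA. Summed over the H3K4me2 regions that overlap it, the Dio2 region had 2074 tags after KLA and 2001 untreated in C57BL6, and 1890 after KLA and 1932 untreated in BALBc. Its C/EBPa peak had 32.4 tags after KLA against 44.1 untreated in C57BL6, and 26.9 against 47.3 in BALBc. The Fcgrt region had 18.1 PU.1 tags after KLA against 63.6 untreated in C57BL6, and 25.4 against 65.9 in BALBc. C/EBPa at Dio2 and PU.1 at Fcgrt were thus lower after KLA in each strain. The Cd72 region differed, with 134 PU.1 tags after KLA against 145 untreated in C57BL6 and 141 against 147 in BALBc. Nascent transcription changed by -1.98 for Dio2, -1.33 for Fcgrt, -1.19 for Mxd4 and -1.18 for Cd72 on the log2 scale (the test is described with the nearest genes), and the calls for Fcgrt, Mxd4 and Cd72 ended when libraries were centred on their median gene (-0.97, -0.84 and -0.83). These 3 genes passed the filter on low values through their untreated GRO-Seq libraries alone, which fixed their direction, and Dio2 did not.

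The lost regions were of modest size and intensity. Their median length was 1512 bp (500 to 9939 bp) and their median Normalized Tag Count in untreated C57BL6 cells was 76.8 (40.8 to 1428), against 165 for kept regions. Their median enrichment over input in the deposited lists was 8.08-fold. The untreated BALBc regions that overlap them had a median of 61.1 tags (1.3 to 9222), counted over the whole overlapping region. The minimum of 40 tags was asked of C57BL6 alone, and the median log2 ratio of C57BL6 over BALBc was 0.49. Without a minimum the rule would have found 3267 regions, 1340 of them below 40 tags. The regions nearest to the limit had 40.8 tags inside it and 39.2 outside it. The 5 just inside overlapped BALBc regions of 17.3, 37.2, 19.9, 94.3 and 2.7 tags, and the 5 just outside BALBc regions of 79.7, 86.4, 74.4, 22.6 and 38.5 tags.

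Absence from a list is not an absence of signal. The deposited lists of KLA-treated cells reached far below 40 tags, with 36.1% of the C57BL6 regions and 38.3% of the BALBc regions under that value. A region of this intensity could therefore have been listed, but its remaining H3K27Ac tags after KLA are not given in the files. The median distance to the nearest H3K27Ac region of KLA-treated cells of either strain was 7440 bp, and 1811 lost regions (94.0%) were at least 1 kb away from one. For the other 116, the edge of a listed region lay within 1 kb.

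Most lost regions lay away from promoters. Against the 3.48% above, 50.8% of kept regions contained a start. Of the lost regions without a start, 986 (51.2% of all lost regions) lay within a gene and 874 (45.4%) between genes. By distance from the nearest start, 82 were within 1 kb, 466 at 1 to 10 kb, 869 at 10 to 50 kb, 311 at 50 to 100 kb and 199 farther than 100 kb. Their median distance was 22.9 kb. Because the kept regions are both stronger and nearer to starts, the comparisons below use 4066 kept regions of 40 to 200 tags without a start, whose median was 99.6 tags, median length 1635 bp and median distance 21.9 kb. The lost regions were mostly solitary: when those with gaps of at most 20 kb were joined, 1410 of 1648 groups held a single region, 205 held 2, and the largest held 5.

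H3K4me2 remained at most lost regions. In C57BL6 cells 91.0% of lost regions overlapped an H3K4me2 region after KLA and 91.6% did untreated, and in BALBc cells 90.0% did after KLA and 90.7% untreated. Over all 18387 shared regions the share was 97.5% after KLA and 97.9% untreated in C57BL6, and 97.5% and 97.6% in BALBc. For kept regions without a start it was 95.8% after KLA in C57BL6 and 96.3% in BALBc. The amount was level too: where listed, the median summed tags were 217 after KLA and 220 untreated in C57BL6, and 207 after KLA and 204 untreated in BALBc. The median log2 change per region was -0.02 in each strain. A decline of 2-fold or more was seen at 3.96% of lost regions in C57BL6 and 3.69% in BALBc. It was seen at 1.83% and 1.57% of all shared regions with H3K4me2 in both conditions, and at 3.00% and 2.79% of kept regions without a start. An increase of that size was seen at 3.72% and 3.69% of lost regions. For all shared regions these shares were 1.40% and 1.50%, and for kept regions without a start 2.43% and 2.58%. In all, 1680 lost regions (87.2%) had H3K4me2 in both strains after KLA and 119 (6.18%) had it in neither. With 1 library per strain and condition, none of these differences has a replicate check.

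**Figure D1:**
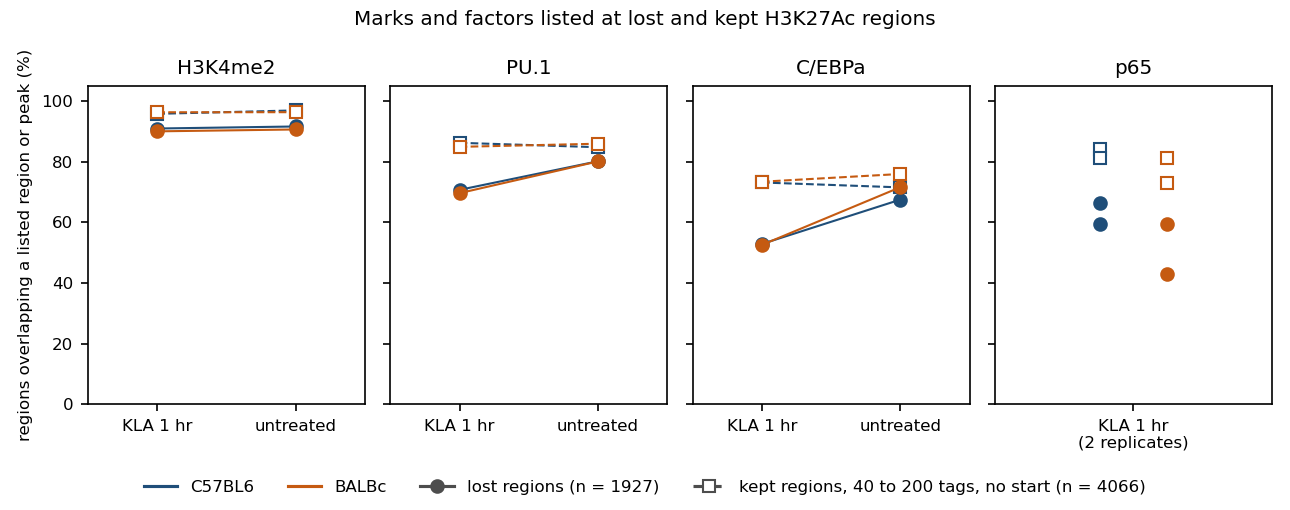
Share of regions (%, vertical axis) that overlap a listed H3K4me2 region or a PU.1, C/EBPa or p65 peak, after KLA and untreated, in C57BL6 (blue) and BALBc (orange). Filled circles are the 1927 lost regions and open squares the 4066 kept regions without a start; each p65 point is 1 library. For H3K4me2 the lost regions lie at 90.0 to 91.6% in every library, whereas for C/EBPa they lie at 52.6 to 52.9% after KLA and 67.5 to 71.6% untreated.

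PU.1 was still listed at most lost regions but at fewer of them and with fewer tags. In C57BL6, 70.7% of lost regions overlapped a PU.1 peak after KLA against 80.2% untreated, and in BALBc 69.6% against 80.1%. Among all shared regions the shares were 87.9% after KLA and 88.7% untreated in C57BL6, and 87.1% and 88.4% in BALBc. At kept regions without a start they were 86.3% after KLA and 84.8% untreated in C57BL6, and 84.9% after KLA and 86.0% untreated in BALBc. The gap to kept regions was thus wider after KLA than in untreated cells, in each strain. The median summed PU.1 signal where listed was 56.1 tags after KLA against 80.2 untreated in C57BL6, and 54.0 against 81.2 in BALBc.

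Measured region by region, the median log2 change of PU.1 tags was -0.54 in C57BL6 and -0.62 in BALBc at lost regions, 0.05 and -0.06 at kept regions without a start, and 1.00 and 0.80 at 1341 regions gained in both strains by the mirrored rule. A decline of 2-fold or more was found at 302 of 1323 lost regions (22.8%) in C57BL6 and 353 of 1304 (27.1%) in BALBc, against 5.50% and 7.02% of all shared regions with PU.1 in both conditions. An increase of that size was found at 5 in C57BL6 and 7 in BALBc (0.38% and 0.54%, against 2.67% and 2.15%). Of the lost regions with PU.1 in both strains untreated, 90 of 1455 (6.19%) had it in neither after KLA. For single peaks, 22.3% of the untreated PU.1 peaks in lost regions had no overlapping KLA peak in C57BL6 and 22.8% in BALBc, against 12% and 13.6% in kept regions without a start and 21.6% and 22.1% of all PU.1 peaks. By this count the lost regions lay near the share of all PU.1 peaks.

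C/EBPa showed the same direction with larger differences. In C57BL6, 52.9% of lost regions overlapped a C/EBPa peak after KLA against 67.5% untreated, and in BALBc 52.6% against 71.6%, whereas kept regions without a start had 73.2% against 71.5% and 73.4% against 76.0%. Over all shared regions the shares were 71.5% after KLA and 74.1% untreated in C57BL6, and 72.0% and 77.9% in BALBc. The median log2 change was -0.67 in C57BL6 and -0.76 in BALBc at lost regions, 0.06 and -0.01 at kept regions without a start, and 1.26 and 1.09 at gained regions. A decline of 2-fold or more was found at 302 of 963 lost regions (31.4%) in C57BL6 and 361 of 971 (37.2%) in BALBc, against 10.2% and 12.8% of all shared regions with the factor in both conditions. An increase of that size was found at 8 in C57BL6 and 10 in BALBc (0.83% and 1.03%, against 5.62% and 4.43%). Of the lost regions with C/EBPa in both strains untreated, 196 of 1221 (16.1%) had it in neither after KLA. For single C/EBPa peaks in lost regions, 32.4% in C57BL6 and 36.0% in BALBc had no overlapping KLA peak, against 18.8% and 20.3% in kept regions without a start and 26.0% and 30.4% of all C/EBPa peaks.

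**Figure D2:**
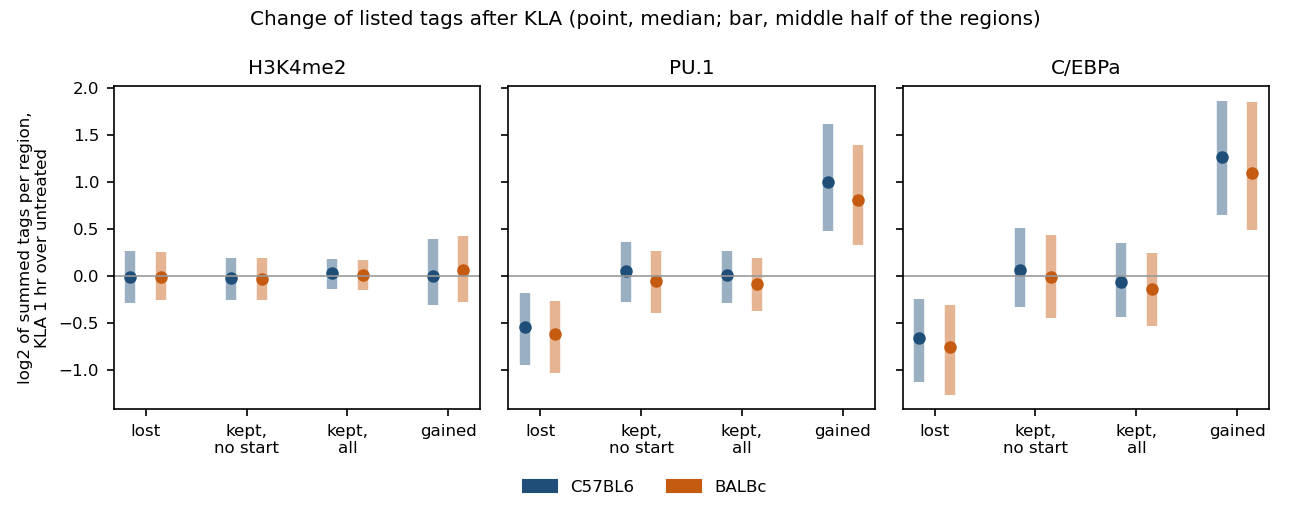
Change of the summed tags per region, as the log2 ratio of KLA for 1 hr over untreated, for H3K4me2, PU.1 and C/EBPa in C57BL6 (blue) and BALBc (orange), at lost, kept and gained H3K27Ac regions listed in both conditions. Points are medians and bars the middle 50% of the regions. Medians at lost regions are -0.02 for H3K4me2, -0.54 and -0.62 for PU.1, and -0.67 and -0.76 for C/EBPa.

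p65 reached a majority of lost regions in some libraries, but fewer than of kept ones. In the C57BL6 libraries 66.3% and 59.6% of lost regions overlapped a p65 peak, and in the BALBc libraries 59.6% and 43.1%. The same libraries gave 80.8%, 80.3%, 75.4% and 67.1% over all shared regions. A p65 peak was present in all 4 lists at 740 lost regions (38.4%), against 69.4% of kept regions without a start, 81.1% of gained regions and 62.3% of all shared regions. It was present in none at 512 lost regions (26.6%), against 11.6% of kept regions without a start. Where listed, the peaks were weak, with median summed tags of 37.6 and 34.0 in C57BL6 and 35.0 and 25.8 in BALBc, against 116, 107, 106 and 83.8 at kept regions without a start. Both BALBc lists were called by the authors against the C57BL6 input.

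PU.1 and C/EBPa were both listed at most lost regions, but at a smaller share than of kept regions without a start. Each factor was counted where listed in untreated cells of at least 1 strain, so both need not share a strain. In this count 1326 lost regions (68.8%) held PU.1 and C/EBPa, 308 (16.0%) PU.1 alone, 134 (6.95%) C/EBPa alone and 159 (8.25%) neither. For kept regions without a start these shares were 74.8%, 14.3%, 5.88% and 5.07%. After KLA, p65 was in all 4 lists at 48.0% of the first set of lost regions, 18.5% of the second, 28.4% of the third and 5.03% of the last. The same sets of kept regions without a start had 77.9%, 43.4%, 62.3% and 25.7%. H3K4me2 was listed in both strains after KLA at 92.4%, 85.4%, 82.8% and 50.9% of these sets of lost regions, against 96.5%, 94.5%, 87.4% and 73.3%. After KLA, 407 lost regions (21.1%) were listed for H3K4me2, PU.1, C/EBPa and p65 in every library, and 58 (3.01%) for none of them in any library. PU.1 tags were lower after KLA with and without p65: the median log2 change was -0.41 in C57BL6 and -0.47 in BALBc where p65 was in all 4 lists, and -0.65 and -0.77 where it was in none. These sets also differ in untreated PU.1, which had medians of 102 tags in C57BL6 and 104 in BALBc with p65, and 53.9 and 53.6 without.

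The lost region with the highest tag count shows this pattern in full. It lay at chr11:118314129-118321750 (mm9), 13.1 kb from the start of C1qtnf1, which encodes a secreted C1q/TNF-related protein, and had 1428 H3K27Ac tags in untreated C57BL6 and 1209 in untreated BALBc. PU.1 had 85.7 tags after KLA against 225 untreated in C57BL6, and 108 against 221 in BALBc. C/EBPa had 158 tags after KLA against 331 untreated in C57BL6, and 177 against 346 in BALBc. Both factors were thus lower in both strains, while H3K4me2 had 1335 tags after KLA and 1359 untreated in C57BL6, and 1360 after KLA and 1382 untreated in BALBc. p65 had 133 and 152 tags in the C57BL6 libraries and 106 and 95.1 in the BALBc libraries.

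The other 9 of the 10 strongest lost regions had 604 to 1099 H3K27Ac tags. In order, they were nearest to Dnmt3a (a de novo DNA methyltransferase), Slco2b1 (an organic anion transporter), A330032B11Rik, Ccnb2 (cyclin B2), Tmem65, Parp2 (a poly(ADP-ribose) polymerase), Armc9, Camk1d (a calmodulin-dependent kinase) and Kansl1 (a subunit of a histone acetyltransferase complex). PU.1 was lower after KLA in both strains at each of them except the Tmem65 region, which had 241 tags after KLA against 216 untreated in C57BL6, and 230 against 257 in BALBc. The Dnmt3a region (chr12:3774667-3781819) had 119 PU.1 tags after KLA against 263 untreated in C57BL6, and 74.6 against 316 in BALBc. Its C/EBPa peaks, with 66.1 tags untreated in C57BL6 and 33.3 in BALBc, were not listed after KLA in either strain. At the Armc9 region (chr1:88109758-88115965), within the gene, no p65 peak was listed in any library, while PU.1 had 147 tags after KLA against 329 untreated in C57BL6, and 149 against 349 in BALBc.

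The Parp2 region (chr14:51438918-51445628) differed between strains. It had 711 H3K27Ac tags in untreated C57BL6 and overlapped a BALBc region of 18.6 tags. PU.1 had 264 tags after KLA and 351 untreated in C57BL6, whereas in BALBc it was not listed after KLA and had 47.5 tags untreated. H3K4me2 had 319 tags after KLA and 399 untreated in C57BL6, and was not listed in BALBc.

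The 5 lost regions with the most p65 were mixed in PU.1. They were nearest to C030034L19Rik, Flt1 (a receptor for vascular endothelial growth factor), Kcnj2 (an inwardly rectifying potassium channel), Tle3 (a Groucho-family corepressor) and 1810010D01Rik. The region near Kcnj2 (chr11:111150189-111153597), 90.9 kb from the nearest KLA H3K27Ac region, had p65 tags of 316 and 447 in C57BL6 and 311 and 344 in BALBc. Its PU.1 had 290 tags after KLA against 245 untreated in C57BL6, and 273 against 253 in BALBc. Its C/EBPa had 282 against 251 in C57BL6 and 324 against 298 in BALBc. These values were higher after KLA in both strains, at a region that had no listed H3K27Ac in KLA-treated cells. The same held for PU.1 at the Tle3 region, with 294 tags after KLA against 274 untreated in C57BL6 and 292 against 262 in BALBc. At the 1810010D01Rik region PU.1 was slightly lower, with 307 against 326 in C57BL6 and 281 against 317 in BALBc. At the C030034L19Rik region (chr3:9496851-9498284), PU.1 had 47.8 tags after KLA against 19.4 untreated in C57BL6 and 71.4 against 23.0 in BALBc, and its edge lay 0.17 kb from a KLA H3K27Ac region. The 4 lost regions with the most PU.1 peaks were those near A330032B11Rik, Ccnb2, Abcd2 and Srp14, with 4 untreated C57BL6 peaks each, and another 31 had 3. Summed PU.1 tags were lower after KLA at each of the 4 in both strains, such as 62.6 against 115 in C57BL6 and 47.6 against 73.5 in BALBc near Abcd2.

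Several genes stood near groups of lost regions. Pparg, a nuclear receptor that controls lipid storage and uptake in macrophages, was the nearest gene of 4, all within it, at 5.33, 19.3, 41.7 and 47.9 kb from an annotated start. The region at chr6:115329248-115331740 (142 H3K27Ac tags) had 34.6 PU.1 tags after KLA against 48.4 untreated in C57BL6, and 30.2 against 52.1 in BALBc. That at chr6:115419061-115420984 (129 H3K27Ac tags) had 84.1 against 131 in C57BL6, and 68.3 against 132 in BALBc. PU.1 was lower after KLA at both in each strain. The first of the 4, chr6:115315320-115317824, lay within a longer H3K4me2 region of KLA-treated C57BL6 cells that also spans the Pparg start, so its H3K4me2 tags cannot be told from those of the promoter.

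Cxcr4, the receptor of the chemokine CXCL12, was nearest to 4 lost regions at 5.28 to 233 kb. The strongest of them, chr1:130509777-130513490 with 186 H3K27Ac tags, had 55.3 C/EBPa tags after KLA against 168 untreated in C57BL6, and 80.6 against 207 in BALBc. The one at chr1:130643171-130644678 had 15.3 C/EBPa tags after KLA against 126 untreated in C57BL6, and 36.5 against 191 in BALBc. Both therefore had less C/EBPa after KLA in each strain. PU.1 changed little at the lost regions 5.28 and 233 kb away. In C57BL6 it had 112 tags after KLA against 127 untreated at the first, and 119 against 129 at the second. Klf4, a zinc-finger factor of monocyte differentiation, was nearest to 7, all 265 to 432 kb upstream. The Klf4 region at chr4:55810175-55811496 had 79.2 PU.1 tags after KLA against 133 untreated in C57BL6, and 68.3 against 129 in BALBc. Nearest means nearest annotated start along the chromosome. No file links a region to the gene it acts on.

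**Figure D3:**
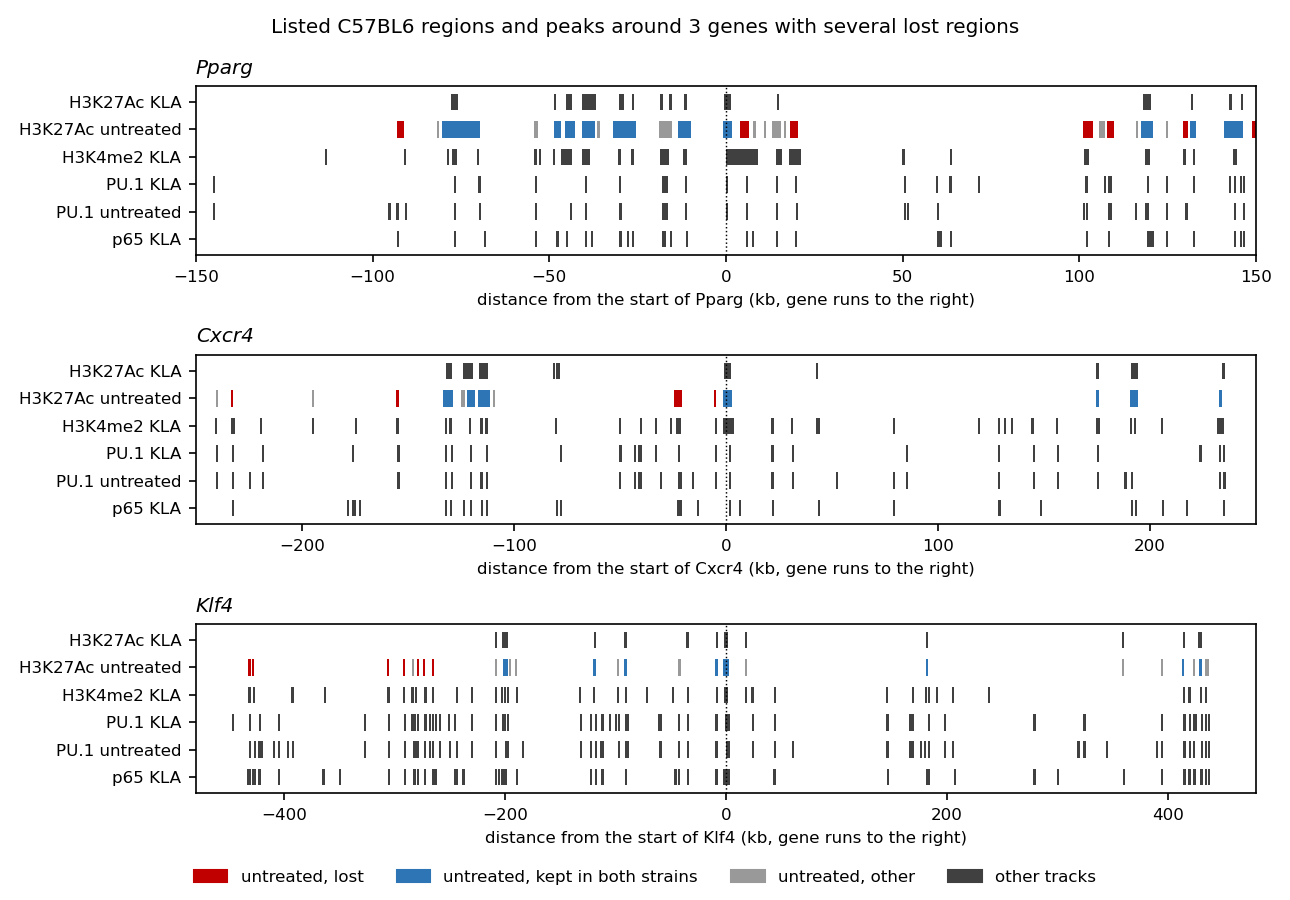
Listed regions and peaks of the C57BL6 libraries around Pparg, Cxcr4 and Klf4, with the distance from the gene's start in kb on the horizontal axis and the gene drawn running to the right. Untreated H3K27Ac regions are red where lost in both strains, blue where kept in both and grey otherwise. Lost regions nearest to neighbouring genes also fall in the windows. The 7 lost regions of Klf4 lie 265 to 432 kb upstream, and marks of H3K4me2 and PU.1 remain over most of the red regions.

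The 1927 regions had 1488 nearest genes, and nascent transcription of many of these fell within 1 hr of KLA. Levels were tested with limma on log2(tags per 10 M + 10) over all 9110 genes with at least 20 exon tags per 10 M in at least 2 GRO-Seq libraries, with strain and treatment in the model. A gene was called at a Benjamini-Hochberg adjusted p under 0.05 and a log2 change of at least 1 in size. Of the 1488 genes, 956 passed the filter on low values. Of these, 294 (30.8%) were called lower, against 15.5% of all genes tested, and 25 (2.62%) higher, against 4.31%. All of these calls had the same direction in both strains. The median log2 change of the 956 genes was -0.61 (-0.82 in C57BL6 and -0.40 in BALBc). Over all genes tested it was -0.34 (-0.58 in C57BL6 and -0.10 in BALBc), so the strains differed over all genes too. With each library centred on its median gene, the 956 genes had -0.24 in C57BL6 and -0.28 in BALBc. With 1 residual degree of freedom, each p rests on a variance shared over all genes.

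The filter and the scaling bear on these counts. A gene that passes the filter through its untreated libraries alone is bound to be lower after KLA: 121 of the 956 genes did so, and they held 85 of the 294 lower calls. Without the genes that passed through 1 condition alone, 209 of 830 (25.2%) were called lower and 23 (2.77%) higher, against 11.4% and 3.57% of all genes tested under the same limit. The median of all genes tested was below 0, at -0.34. When each library was centred on its median gene, 160 of 956 (16.7%) were called lower and 40 (4.18%) higher, against 7.08% and 6.78% of all genes.

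The largest decline was that of Fbxo32, which encodes atrogin-1, a ubiquitin ligase subunit induced by FoxO factors. It had 8.41 nascent tags per 10 M after KLA in C57BL6 and 24.7 in BALBc, against 379 and 586 in the untreated libraries, so the groups were far apart (log2 change -4.25, SE 0.34, limma adjusted p = 3.04e-32). Its 2 lost regions, 23.7 and 41.7 kb from the start, held no C/EBPa or p65 peak in any library. Arhgap25, a Rac GTPase-activating protein of phagocytes, had 70.2 and 71.0 tags after KLA in C57BL6 and BALBc, against 818 and 422 untreated (log2 change -2.89, SE 0.32, limma adjusted p = 1.03e-17). Engase, a cytosolic enzyme that trims N-glycans, had 0.72 tags in C57BL6 and 3.46 in BALBc after KLA, against 48.8 and 64.4 untreated (log2 change -2.46). It passed the filter through its untreated libraries alone, so its direction was fixed by the filter and no p is given. Engase had 3 lost regions, one of them over its start, and was the nearest gene of no kept region.

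The other 9 of the 12 genes with the lowest nascent change were Fam198b (-3.09 on the log2 scale), Cdh23 (-2.75), Plekhm1 (-2.59, a regulator of lysosome fusion), Marchf1 (-2.59, a membrane-bound ubiquitin ligase that targets MHC class II), Pkib (-2.57, an inhibitor of protein kinase A), Abcd2 (-2.52, a peroxisomal fatty acid transporter), Hpgds (-2.50, a prostaglandin D synthase), Fhdc1 (-2.50) and Lhfpl2 (-2.46). In each, both KLA libraries lay below both untreated libraries. Fam198b, Marchf1, Pkib, Abcd2 and Fhdc1 passed the filter through their untreated libraries alone, as did Engase, and the filter thus fixed the direction of 6 of the 12. Cdh23 had 53.6 to 168 nascent tags after KLA against 614 to 815 untreated, yet its RNA-Seq level was at most 10.6 tags per 10 M in every library. The strand used in counting is not given, and transcripts on opposite strands of a locus then cannot be told apart.

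**Figure D4:**
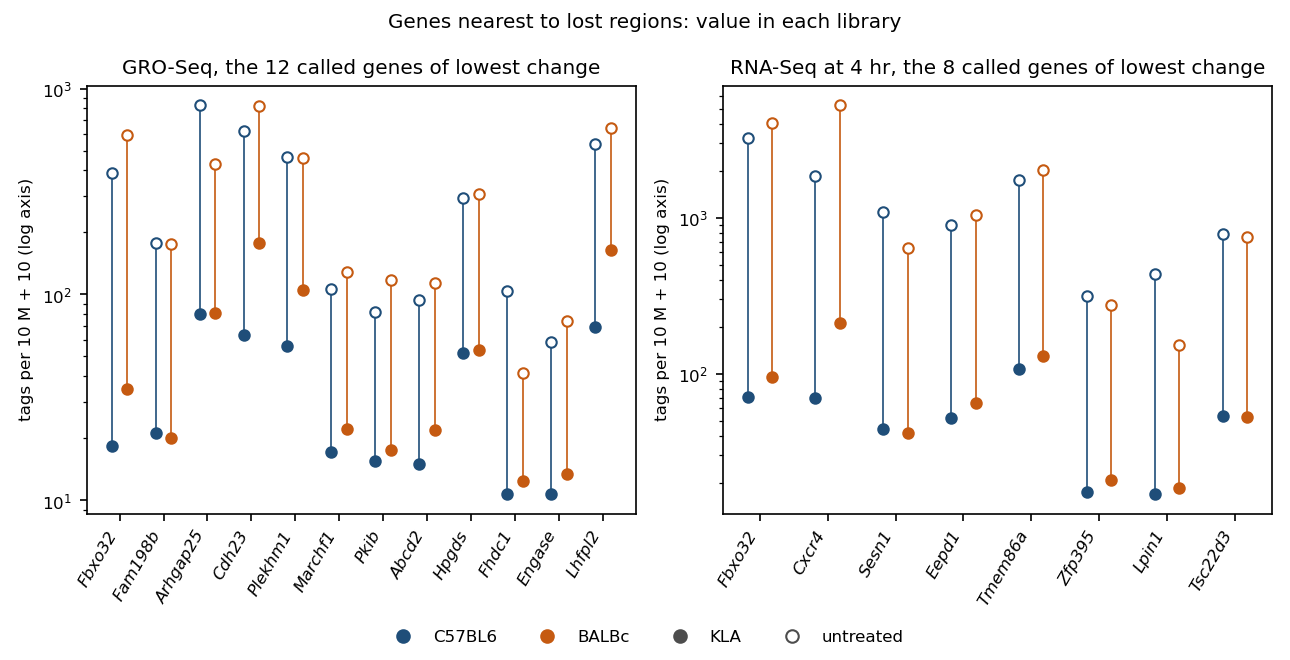
Level of each named gene in the GRO-Seq libraries (left: KLA for 1 hr and untreated) and in the RNA-Seq libraries (right: KLA for 4 hr and untreated), as tags per 10 M plus 10 on a log axis, for the 12 called genes with the lowest GRO-Seq change and the 8 with the lowest RNA-Seq change at 4 hr. Filled points are KLA libraries, open points untreated ones, blue C57BL6 and orange BALBc, and lines join the libraries of a strain. In every gene each plotted KLA point lies below the untreated point of its strain.

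At the level of RNA, little had changed after 1 hr. Of 1068 nearest genes that passed the filter, 12 were called lower and 13 higher (1.12% and 1.22%), against 1.43% and 1.82% of the 10692 genes tested, and 227 (21.3%) had an unadjusted limma p under 0.05, against 23.1% of all genes. Both shares lie near the background. Centred on the median gene, 6 were called lower and 18 higher, against 0.730% and 2.25% of all genes. The lowest were Ier5l, an immediate early response gene (log2 change -2.16), Zbtb39 (-1.88), Lpar6, a receptor of lysophosphatidic acid (-1.45), Gadd45g, a stress-induced regulator of growth (-1.44), Tsc22d3, which encodes the glucocorticoid-induced leucine zipper (-1.29), and Lpar5, a related receptor (-1.22). Lpar6 had 485 and 320 tags per 10 M after KLA in C57BL6 and BALBc, against 1107 and 1075 untreated. In the same strains Gadd45g, which was nearest to 4 lost regions, had 771 and 542 after KLA, against 2137 and 1460 untreated. In both genes the KLA and untreated libraries did not overlap.

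After 4 hr the decline had reached the RNA. Of the 1068 genes, 427 (40.0%) were called lower, against 21.3% of all genes tested, and 57 (5.34%) higher, against 8.10%. All of these calls, too, had the same direction in both strains. The median log2 change was -0.78 (-0.88 in C57BL6 and -0.74 in BALBc), against -0.47 over all genes. Centred on the median gene, 266 (24.9%) were called lower and 89 (8.33%) higher, against 9.74% and 11.7% of all genes. Only 7 of the 1068 passed the filter through the untreated libraries alone, in a count that treats the 1 hr libraries as KLA libraries. It leaves out genes that passed through untreated and 1 hr libraries and were low at 4 hr. Zfp395 was such a gene, with 7.40 and 10.9 tags at 4 hr in C57BL6 and BALBc, against 303 and 268 untreated. The number of such genes among the 427 was not counted, so the part of the filter in these calls is not known. Of 904 nearest genes tested in both assays, 203 were called lower in both. These are 73.3% of the 277 called lower by GRO-Seq and 55.2% of the 368 called lower by RNA-Seq at 4 hr, and over all genes the corresponding shares were 62.1% and 43.0%. The base also differed: RNA-Seq at 4 hr called 40.7% of the 904 genes lower, against 21.9% of all genes tested in both assays. A higher share near lost regions is thus not by itself a closer match of the assays.

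Fbxo32 again had the largest decline, to 60.7 tags per 10 M in C57BL6 and 85.1 in BALBc at 4 hr, against 3222 and 4028 untreated (log2 change -5.46, SE 0.17, limma adjusted p = 7.77e-07). Cxcr4 had 59.7 tags at 4 hr in C57BL6 and 203 in BALBc, against 1846 and 5231 untreated (log2 change -4.68, SE 0.18, limma adjusted p = 1.57e-06). BALBc cells had more Cxcr4 RNA than C57BL6 cells in each condition, and the decline was of similar size in both. Sesn1, a stress-induced inhibitor of mTORC1 signalling, had 34.5 and 31.6 tags at 4 hr in C57BL6 and BALBc, against 1086 and 631 untreated (log2 change -4.28). The other 5 of the 8 lowest were Eepd1 (-4.05), Tmem86a (-3.99, a lysoplasmalogenase), Zfp395 (-3.95), Lpin1 (-3.86, a phosphatidate phosphatase) and Tsc22d3 (-3.85). Lpin1 had a lost region over its start and was nearest to no kept region. Its level was 6.91 tags in C57BL6 and 8.63 in BALBc at 4 hr, against 423 and 143 untreated. Lpin1 and Zfp395 were below the limit of the filter in both 4 hr libraries, so the filter bears on their direction.

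By function, the genes of sterol and lipid metabolism were the largest of the lists examined near lost regions, with 10 of 22 members. This list and those below were drawn up with earlier results of these data known, so their shares are a description. RNA of 7 of the 10 fell at 4 hr and none rose. Over the whole list of 22, 8 fell and 1 rose, against 21.3% and 8.10% of all genes tested. By GRO-Seq 5 of 9 tested fell, against 7 of 20 in the whole list and 15.5% of all genes tested. Pparg had 107 and 112 tags at 4 hr in C57BL6 and BALBc, against 1006 and 976 untreated (log2 change -3.07, SE 0.18, limma adjusted p = 1.02e-05), with a nascent change of -1.87, where it passed the filter through the untreated libraries alone. Its partner Rxra had 198 and 202 tags at 4 hr against 1070 and 1044 untreated in the same strains (-2.34, nascent -2.26). Each receptor thus had nearly the same level in both strains in each condition. Abcg1, a cholesterol efflux pump, changed by -2.16 (nascent -1.98), Plin2, a lipid droplet coat protein, by -1.52 (nascent -1.54), and Scd2, a fatty acid desaturase, by -1.94 (nascent -1.15). Ppard and Mylip fell in RNA alone by the calls, with -1.75 and -1.50. Lpl and Scd1 were not called, with RNA changes of -0.74 and -0.80. Centring the libraries on their median gene ended the nascent call for Scd2 (-0.80), and then 7 of the 10 were called lower in RNA at 4 hr and 1 higher.

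Of 26 macrophage identity and lineage genes, 9 were nearest to lost regions. Nascent transcription of 5 fell: Tlr4, the receptor of KLA itself (-2.07), the Fc receptor gene Fcgr3 (-1.68), the transcription factor genes Mef2c (-1.56) and Maf (-1.31), and Mertk, a receptor for apoptotic cells (-1.32). Of these, Mef2c passed the filter through its untreated libraries alone. The calls for Maf and Mertk ended when libraries were centred on their median gene (-0.96 and -0.97). RNA of 4 fell at 4 hr: Cebpa, which encodes the C/EBPa factor mapped here (-3.29), Mef2c (-1.48), Tlr4 (-1.34) and Fcgr3 (-1.03), the last 2 not called when centred (-0.91 and -0.60). In C57BL6 Cebpa had 1338 tags at 1 hr and 364 at 4 hr, against 3144 untreated, and in BALBc 1541 and 273, against 3180. Its nascent change was -0.89, without a call. Fcgr2b, Mef2a and Runx1 were not called in any comparison, although centring called Fcgr2b and Mertk RNA higher at 4 hr (1.21 and 1.20). The genes of this list near lost regions had a median RNA change of -0.53 at 4 hr, against -0.21 for the whole list and -0.47 for all genes tested. Over the whole list nascent transcription fell for 9 of 23 tested and rose for 1, against 15.5% and 4.31% of all genes tested. RNA at 4 hr fell for 6 of 25 and rose for 3, against 21.3% and 8.10% of all genes tested. The RNA counts of the list lay near those shares.

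Receptors and signalling regulators near lost regions mostly followed the same direction. Of 31 G-protein-coupled, chemokine and lipid receptors, 7 were nearest to lost regions and 6 passed the filter. Among those that fell in nascent transcription were Lpar6 (-2.38), Cxcr4 (-1.73) and S1pr2 (-1.49), a receptor of sphingosine 1-phosphate. Among those that fell in RNA at 4 hr were Cxcr4, Lpar6 (-3.37) and S1pr1 (-2.21), another receptor of sphingosine 1-phosphate. Over the whole list nascent transcription fell for 10 of 19 tested and rose for 1, against 15.5% and 4.31% of all genes tested. RNA at 4 hr fell for 12 of 24 and rose for 5, against 21.3% and 8.10%. Of 23 regulators of G proteins and small GTPases, 7 were near lost regions: RNA fell at 4 hr for Arhgap25 (-3.24), Rasa3 (-3.21), Arhgap9 (-2.39), Arhgef6 (-2.08), Dock8 (-1.17) and Arhgap15 (-1.13), and Rapgef1 had 0.04. Over the whole list 16 of 23 fell and 1 rose, against 21.3% and 8.10% of all genes tested. The calls for Dock8 and Arhgap15 ended when centred (-0.74 and -0.70).

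Of 33 stress, FoxO and arrestin genes, 7 were near lost regions, and RNA of 6 fell at 4 hr. They were Fbxo32, Sesn1, Tsc22d3, Foxo3 (-3.15), Mxd4 (-2.53) and Klf4 (-1.22, not called when centred, -0.80), whereas Klf13 had -0.40. Foxo3, a transcription factor that activates atrogin-1 in muscle, had 16.8 and 32.2 tags at 4 hr in C57BL6 and BALBc, against 329 and 252 untreated. Over the whole list 20 of 33 fell and 1 rose, against 21.3% and 8.10% of all genes tested. Of 21 phosphoinositide and kinase genes 3 were near lost regions: Map3k1 fell (RNA -2.43, nascent -1.44), Plcg2 fell in RNA (-1.03, not called when centred, -0.60), and Pik3r1 had -0.40. RNA of 7 of the 21 fell at 4 hr and that of 3 rose, against the same 21.3% and 8.10% of all genes tested. Of the inflammatory lists, 1 of 24 cytokine and chemokine genes, 1 of 22 NF-kB pathway genes and 0 of 21 interferon-response genes were nearest to a lost region, against 9.99% of all 10692 genes tested by RNA-Seq. No test was made of these counts. Because the lists were drawn up with earlier results of these data known, their shares are no independent evidence.

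**Figure D5:**
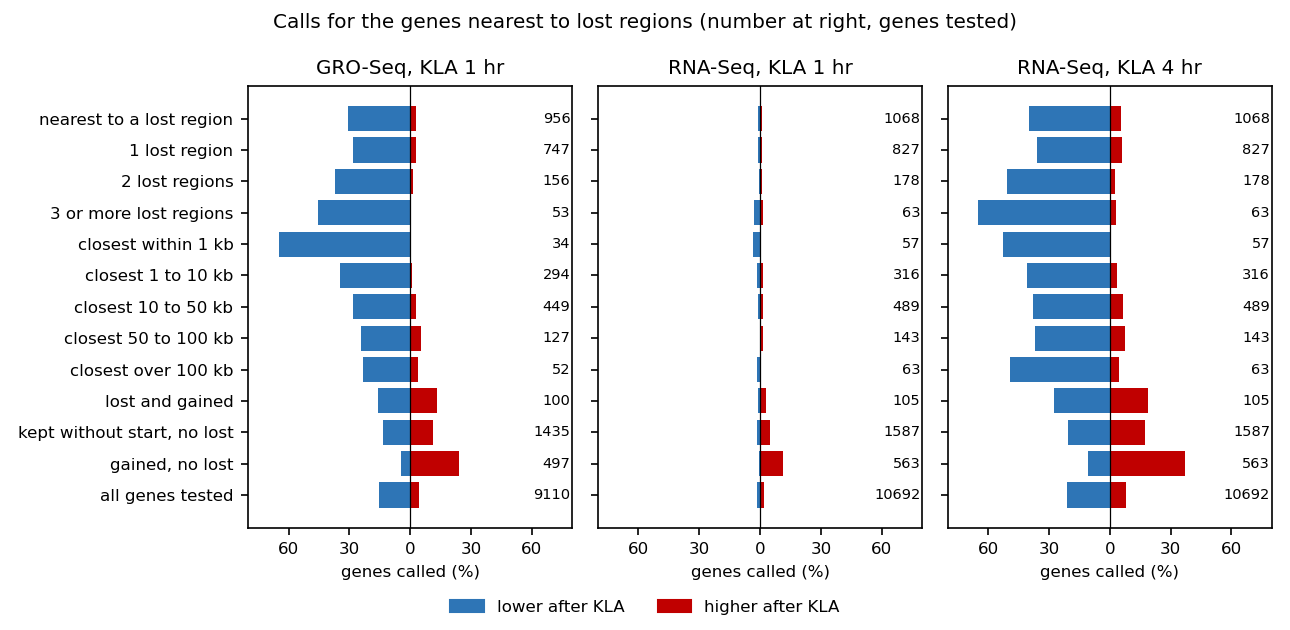
Percent of tested genes called lower (blue, to the left) or higher (red, to the right) after KLA by GRO-Seq at 1 hr, RNA-Seq at 1 hr and RNA-Seq at 4 hr, for the genes nearest to lost regions, their subsets, genes nearest to other classes of region and all genes tested. The number at the right of each bar is the number of genes tested. By GRO-Seq 30.8% of the genes nearest to a lost region are called lower and 2.62% higher, against 15.5% and 4.31% of all genes.

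The calls differed with the number and position of the lost regions. Nascent transcription was called lower for 28.4% of the genes tested with 1 lost region, 37.2% of those with 2 and 45.3% of 53 genes with 3 or more. The share of all genes tested was 15.5%. Without the genes that passed the filter through 1 condition alone, the shares were 23.9%, 25.6% and 43.2%, against 11.4% of all genes tested. For RNA at 4 hr, over all genes that passed the filter, the shares with 1, 2 and 3 or more were 35.8%, 50.6% and 65.1%, against 21.3% of all genes tested. Of 30 tested genes with a lost region over the start, 22 (73.3%) were called lower by GRO-Seq, and 8 of 16 (50.0%) without the genes that passed through 1 condition alone. With the closest lost region within 1 kb the share was 64.7% of 34 genes. It was 34.7% at 1 to 10 kb, 28.3% at 10 to 50 kb, 24.4% at 50 to 100 kb and 23.1% beyond. Without the genes that passed through 1 condition alone, the shares over these steps were 38.9% of 18 genes, 30.6%, 23.5%, 19.3% and 19.1%. RNA at 4 hr did not keep this order, with 52.6%, 40.8%, 37.6%, 37.1% and 49.2% over the same steps. Genes whose strongest lost region had at least 100 tags were called lower by GRO-Seq in 38.1% of cases, against 26.1% of those with 40 to 100 tags, and without the same genes in 31.6% against 21.4%. The shares were 33.5% with and 28.7% without a lost region holding p65 in all 4 lists, and 26.3% and 24.4% without the same genes. No test was made between these subsets, whose genes also differ in length, level and number of neighbouring regions.

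The shares also differed between genes near other classes of region, which were not tested against each other. Of the genes nearest to lost and gained regions alike, 16.0% were called lower and 13% higher by GRO-Seq, against 15.5% and 4.31% of all genes tested. The share called lower was thus near that of all genes. Among genes nearest to gained and no lost regions these were 4.43% and 24.1%, and among genes nearest to kept regions without a start and to no lost region 13.4% and 11.4%. Without the genes that passed through 1 condition alone, the shares were 15.6% lower and 12.5% higher near lost and gained regions, 3.49% and 17.7% near gained alone, and 10.1% and 10.5% near kept regions without a start. Those of all genes tested under the same limit were 11.4% and 3.57%. For RNA at 4 hr the shares were 27.6% lower and 19.0% higher near lost and gained regions, 10.7% and 37.1% near gained alone, and 20.8% and 17.4% near kept regions without a start. Those of all genes tested were 21.3% and 8.10%.

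Among the 5 genes nearest to the most lost regions, the responses differed. Nars2, a mitochondrial asparaginyl-tRNA synthetase, was nearest to 8, and its RNA had 15.8 and 23.0 tags at 4 hr in C57BL6 and BALBc, against 100 and 103 untreated (log2 change -1.93), with a nascent change of -0.82 and no call. Nars2 passed the GRO-Seq filter through its untreated libraries alone. Klf4 had 7, and its RNA had 52.3 and 92.0 tags at 4 hr in these strains, against 153 and 203 untreated. Its nascent level was below the filter. Zfp532 and 5031425F14Rik had 6 each and fell in RNA by 2.24 and 2.14 on the log2 scale at 4 hr. Both genes were below the limit of the filter in both 4 hr libraries, so the filter bears on their direction. Rpl31, a ribosomal protein gene, also had 6 and was not called, with 90.3 tags in C57BL6 and 64.4 in BALBc at 4 hr, against 98.9 and 99.9 untreated.

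A minority of nearest genes rose. By GRO-Seq the 8 highest were Cd44, a hyaluronan receptor (2.60 on the log2 scale), Mki67, a marker of cycling cells (2.56), Prdm1, which encodes the repressor Blimp-1 (2.30), Ccrl2, a chemerin-binding receptor (2.16), Slc44a1, a choline transporter (2.16), Tfec, a macrophage transcription factor (2.14), Bcl2l11, a pro-apoptotic BH3 protein (2.04), and Hivep3 (2.02). Prdm1 had 471 and 544 nascent tags after KLA in C57BL6 and BALBc, against 92.5 and 96.9 untreated. It was nearest to 1 lost, 17 kept and 4 gained regions. Ccrl2 RNA had 23090 tags at 1 hr and 14230 at 4 hr against 2216 untreated in C57BL6, and 29190 and 20700 against 4314 in BALBc. Each of the 8 had 1 lost region, and at least 2 kept ones.

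At 4 hr the highest RNA changes were those of Rasgrp1, an activator of Ras (4.45), Tnip3, an inhibitor of NF-kB signalling (3.39), Pmepa1 (3.34), Parp9, an interferon-inducible gene (3.30), Cd274, which encodes PD-L1 (3.05), Hivep3 (2.64), Notch1 (2.47) and Ccrl2 (2.47). Rasgrp1 had 277 and 394 tags at 4 hr in C57BL6 and BALBc, against 4.12 and 7.28 untreated, and passed the filter through the 4 hr libraries alone, so its direction was fixed by the filter. Cd274 had 18650 and 24710 tags at 4 hr in C57BL6 and BALBc, against 2617 and 2541 untreated (SE 0.27, limma adjusted p = 7.14e-05). Its nascent level at 1 hr was 260 and 203 tags after KLA in these strains, against 230 and 219 untreated, without a call. Among the highest at 1 hr were Tnip3 (3.14), Ccrl2 (3.07), Mki67 (2.82), Prdm1 (2.13) and Rab20, a phagosomal GTPase (1.66). Csf1, the macrophage growth factor, was the one cytokine gene nearest to a lost region, 55.8 kb away, and rose to 1180 tags in C57BL6 and 1772 in BALBc at 4 hr, against 239 and 374 untreated (2.24).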

How the data were processed

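Region lists were called by the authors with HOMER findPeaks against input for each library, per the file headers, on mm9 after alignment with Bowtie 0.12.7, per the submitters' processing notes. Normalized Tag Count is the deposited signal per region in tags per 10 M, and fold over input the deposited ratio. The header of the untreated C57BL6 H3K4me2 list names no region size, unlike those of the other H3K4me2 lists. Expression files hold log2(1 + exon tags per 10 M) as deposited by the authors, with more than 1 transcript for some genes. Here the transcript with the highest mean RNA-Seq level was kept for each gene and used for GRO-Seq too. Values were converted back to whole tags and scaled to 10 M. Intervals were overlapped at 1 bp with Python 3.11.15 (pandas 2.3.3, numpy 2.4.6), and limma 3.58.1 in R 4.3.3 tested expression. The test was also run on simulated data with changes in both directions and no shift of whole libraries. That check therefore does not cover the shift of all genes seen here. Named regions and genes were the extremes of each measure and the listed pathway members nearest to lost regions. The lost regions, gene lists and tests were chosen with earlier results of these data known. Inputs, CB6F1 and NOD samples (10 of 40) were not analysed here, and a few genes are not reported here. Alternatives covered tag minimum, overlap, p65 replicate, filter, pseudocount and centring.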

Additional observations from a re-analysis of the deposited data

Results flagged for a closer look

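For 20 combinations of a named gene and a comparison, the change after KLA had opposite signs in the 2 strains. None of these genes was called in the comparison concerned. With 1 library per strain and condition, the difference between strains was not tested. Values are the log2 change in C57BL6 minus that in BALBc, without centring. Over all genes tested by GRO-Seq the median change was -0.58 in C57BL6 and -0.10 in BALBc, and 0.01 and 0.02 when centred. The GRO-Seq differences below include this shift of all genes, so those below 0 are not by themselves opposite responses of the strains.

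By GRO-Seq the difference was 1.04 for Fcgr2b (0.51 in C57BL6 and -0.53 in BALBc), 0.38 for Pik3r1, 0.28 for Cd274, -0.29 for Mef2a, -0.57 for Klf13, -0.59 for Notch1, -0.62 for Mylip and -0.71 for Zbtb39. By RNA-Seq at 1 hr it was 0.60 for Tlr4, 0.53 for Arhgef6, 0.38 for Fcgr2b, 0.36 for Parp9, 0.21 for Cd44, 0.047 for Plin2 and -0.35 for Eepd1. By RNA-Seq at 4 hr it was -0.53 for Bcl2l11, -0.54 for Rapgef1, -0.66 for Mef2a, -0.98 for Prdm1 and -1.05 for Runx1 (-1.05 in C57BL6 and 0.00 in BALBc).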

How the results depend on the processing

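Raising the minimum to 100 tags left 669 lost regions. At a minimum of 60 tags the shares after KLA were 93.8% in C57BL6 and 92.9% in BALBc for H3K4me2, 75.9% and 74.7% for PU.1, 59.3% and 57.9% for C/EBPa, and 62.6% and 47.0% for p65 in both replicates. Asking that the peak centre lie in the region, or that H3K4me2 cover 50% of it, gave 65.2% and 62.0% for H3K4me2, 68.3% and 67.1% for PU.1, and 50.2% for C/EBPa in BALBc. With 1 p65 replicate left out, the share ran from 59.6% to 66.3% in C57BL6 and from 43.1% to 59.6% in BALBc. Nascent lower calls numbered 98 with a pseudocount of 50 and 160 when centred. Nascent higher calls numbered 40 when centred, 16 for lost regions within 50 kb and 41 with the nearest gene taken among tested genes. RNA calls at 1 hr numbered 6 lower when centred, and 20 lower and 20 higher with the nearest tested gene. RNA calls at 4 hr numbered 266 lower and 89 higher when centred. Among the named genes alone, 24 calls ended with a pseudocount of 50, 16 when centred and 3 with no filter. In the same genes 5 calls were gained when centred and 2 with a pseudocount of 2. No called gene among the named genes reversed direction, whereas changes without a call could turn sign when centred. The cause of these shifts was not tested.

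Started from BALBc regions instead, the rule found 1610, and 1202 of the 1927 lost regions (62.4%) overlapped one of them, which is 1195 of the 1610 (74.2%). The median changes at regions of 60 tags or more, at least 1 kb from a KLA region, or without a start were chosen after seeing the data, and gave -0.55 to -0.58 in C57BL6 and -0.63 to -0.65 in BALBc for PU.1, and -0.67 to -0.69 and -0.76 to -0.81 for C/EBPa. No paired analysis was possible because no replicate numbers pair the libraries within a strain; strain is a term of the model, so that treatment was compared within strains. Leaving out an expression library was not run. ChIP-Seq has 1 library per group except p65, so its differences carry no error.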
